A study of Mus musculus with 4 samples.

Results

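The cytosolic ribosome of the mouse liver was followed through the transcripts of its protein genes in Med1 floxed mice that had received a Med1 adenovirus or a LacZ control adenovirus. Members were all genes whose platform symbol was Rpl or Rps with a number and at most a short suffix (a, x or l), together with Rplp0, Rplp1, Rplp2 and Rpsa. Kinases of the Rps6k kind and symbols marked as pseudogenes were left out. This gave 63 of the 19057 genes with a named probe, measured by 93 probes. By role they were 23 proteins of the small subunit, 30 of the large subunit, the 3 genes of the P stalk and 7 paralogs, which are second copies of a ribosomal protein gene. RefSeq lists 1 member, Rps4l, as a transcribed pseudogene, and its symbol kept it in the set.

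All mice were Med1 floxed (Med1fl/fl) on the C57BL6/J background and 5.5 weeks old, with the floxed allele also present in the controls. The 4 groups were Ad-Med1 (Ad-His-Med1, an adenovirus expressing Med1) at day 3, Ad-LacZ (an adenovirus expressing beta-galactosidase) at day 3, Ad-Med1 at day 5 and Ad-LacZ at day 5, counted in days after injection into the tail vein. Each group was 1 Illumina array of liver RNA, and the labels do not say whether an array held 1 mouse or a pool. The floxed allele without a Cre leaves the mouse's own Med1 in place, so Ad-Med1 adds to it, and no uninjected liver was analysed here. Med1 probe ILMN_3106388 read 9.35 in Ad-Med1 and 7.27 in Ad-LacZ at day 3, and 9.66 and 7.47 at day 5. Probe ILMN_1220563 was higher in Ad-Med1 by 1.99 at day 3 but by only 0.20 at day 5. Probe ILMN_2658227 was detected only in Ad-Med1, at 11.16 at day 3 and 12.22 at day 5, and the remaining Med1 probes were undetected.

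Ribosomal proteins assemble with ribosomal RNA in the nucleolus into a small subunit, which reads the mRNA, and a large subunit, which forms the peptide bond and carries the P stalk that recruits elongation factors. Nearly all of them are needed in equal amounts, and unassembled copies are degraded. Their mRNAs begin with a run of pyrimidines (C and T in the gene), the TOP element, through which mTOR signalling and the RNA-binding protein Larp1 set how strongly they are translated. Ribosome production is known to increase when hepatocytes grow and divide. An array of total RNA measures the amount of each mRNA and not its translation.

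Promoters were available from RefSeq (GRCm38.p6) for 52 of the 63 members, as 250 bases before and 50 bases after each listed start. A TOP element is expected at the start itself. CTTTC or CTTTT within 10 bases of the listed start on the sense strand was found in 10 of the 52 members (19.2%), against 4.60% of all 27025 promoters in the table. A run of at least 8 bases of C and T in the 50 bases around the start was found in 24 members (46.2%) and in 18.8% of all promoters, and the median longest run was 7 bases in members and 5 in all. CCGGAAG on either strand, letters that Ets family factors such as GABP can bind, was held by 22 members (42.3%) and by 9.11% of all promoters. AAGATGG on either strand, letters of the YY1 motif, was held by 8 members (15.4%) and by 6.47% of all. TATAAA on the sense strand was held by 5 members (9.62%) and by 8.88% of all. These matches describe letters in a window, and the listed start of a gene can differ from the start used in liver.

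Windows of 60 bases, 40 before the listed start and 20 from it on, are printed for 4 members whose level stood apart on an array (Rpl7a, Rpl22l1, Rpl22 and Rps3a1). They are also printed for Rpl38 and Rps2, which varied little in the quantile normalized values given below. Capitals mark the longest run of C and T in each window. Rpl7a, Rpl22l1, Rpl22, Rpl38 and Rps2 lie on the plus strand at chr2:26910767-26910826, chr3:28805468-28805527, chr4:152324396-152324455, chr11:114668540-114668599 and chr17:24720023-24720082, and Rps3a1 lies on the minus strand at chr3:86142649-86142708.
Rpl7a: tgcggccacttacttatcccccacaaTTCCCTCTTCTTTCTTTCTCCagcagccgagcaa
Rpl22l1: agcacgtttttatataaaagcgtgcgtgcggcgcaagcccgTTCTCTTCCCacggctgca
Rpl22: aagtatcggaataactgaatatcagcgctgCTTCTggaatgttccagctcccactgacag
Rps3a1: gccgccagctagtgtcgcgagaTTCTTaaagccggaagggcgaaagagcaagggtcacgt
Rpl38: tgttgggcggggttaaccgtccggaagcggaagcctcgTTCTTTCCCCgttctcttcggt
Rps2: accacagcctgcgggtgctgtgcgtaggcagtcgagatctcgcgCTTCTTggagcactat
The run spans 21 bases in Rpl7a, 10 in Rpl22l1 and Rpl38, 6 in Rps2 and 5 in Rpl22 and Rps3a1. The windows of Rps3a1 and Rpl38 also hold CCGGAAG, and that of Rpl22l1 holds TATAAA upstream of its start. The long run of Rpl7a covers the listed start, while the short runs of Rpl22 and Rps3a1 begin 10 and 18 bases before it and end upstream of it.

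Signals were background corrected, quantile normalized over the 4 arrays and taken to log2, so every level below is a log2 signal of 1 probe and every difference is Ad-Med1 minus Ad-LacZ of the same day. Detection means a detection p under 0.01 on that array, and a gene with several probes was read from the one with the highest mean signal. In these terms 56 members were detected on at least 1 array, 53 of them on all 4. The 7 members detected on none were Rpl6, Rpl14, Rpl17, Rps20, Rps23 and the paralogs Rpl3l and Rpl39l. Each was read by a single probe. Whether the lack of detection reflects a low mRNA level or the probe itself was not tested. Rpl3l is known from skeletal and heart muscle and Rpl39l from testis. Rpl22l1, Rps15a and Rpsa were detected on some arrays only.

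Before normalization the arrays differed in brightness, and a probe averaged 925 in Ad-Med1 and 350.2 in Ad-LacZ at day 3, and 968 and 475 at day 5. Between 12899 and 15294 probes were detected on an array. The arrays also differed in sex markers, in a way that follows neither virus nor day. All 4 probes of Xist, the RNA of the inactive X chromosome, were detected on the Ad-Med1 day 3, Ad-Med1 day 5 and Ad-LacZ day 5 arrays, with 7.52 as the lowest signal, while on the Ad-LacZ day 3 array none was detected. The Y-linked Eif2s3y read 10.54 on the Ad-Med1 day 5 array and 9.52 on the Ad-LacZ day 3 array by probe ILMN_1241001 and was undetected on the others, so that only Ad-Med1 day 5 had both markers and only Ad-LacZ day 3 had Eif2s3y without Xist. The virus differences of both days, and every value set apart on the Ad-LacZ day 3 array, therefore cannot be told apart from this difference in sex markers. Of the 8 hepatocyte markers, Ttr and Apoa1 read between 15.17 and 15.35 on all 4 arrays, Tat was undetected and Alb read between 5.84 and 7.59. The others differed both ways between Ad-Med1 and Ad-LacZ, with Cps1 at -0.65 and Hnf4a at 0.85 at day 3 and Serpina1a at -0.67 and Apob at 0.62 at day 5. The summed linear signal of the 8 erythroid markers measured (of 13 listed) was 3323 on the Ad-Med1 day 3 array and 78332 on the Ad-LacZ day 3 array, against 69942 on the Ad-Med1 day 5 array and 54683 on the Ad-LacZ day 5 array, with Epb42 undetected throughout. The 13 macrophage and neutrophil markers measured (of 14) summed to 4799 and 12115 at day 3 and to 12910 and 6272 at day 5 in Ad-Med1 and Ad-LacZ, with Cd5l undetected. Within that list the macrophage markers Vsig4 and Clec4f were at least 62.8-fold and 39.2-fold lower in Ad-Med1 at day 3 and differed by 0.80 and -0.07 at day 5. Other macrophage markers differed less at day 3, with Adgre1 at -0.05 and Csf1r at -0.61. Timd4 and Marco were at least 3.42-fold and 2.19-fold lower at day 3, and Marco was at least 3.76-fold higher at day 5. The neutrophil markers S100a8 and S100a9 were higher by 1.95 and 2.56 at day 3 and by 2.24 and 2.50 at day 5. The 8 lymphocyte markers measured (of 13) summed to 2638 and 2020 at day 3 and to 3862 and 1385 at day 5 in Ad-Med1 and Ad-LacZ, with Cd4, Cd8a and Ms4a1 undetected. At day 5 the T cell markers Cd3g, Cd3d and Cd8b1 were higher in Ad-Med1 by 2.18, 1.71 and 1.42, and Cd3e was at least 4.72-fold higher. The B cell marker Cd79b went the other way at day 5, at -0.52. In the remaining lists Krt7, Krt19, Epcam, Kdr, Prss2, Cpa1 and Ins2 were undetected. Cela1 was detected on all 4 arrays and was 2.36-fold and 4.02-fold lower in Ad-Med1 at day 3 and day 5. Des and Acta2 were also lower, at -1.10 and -0.94 at day 3 and at -1.15 and -1.09 at day 5. Col3a1 was at least 3.72-fold higher at day 3 and stood at -0.93 at day 5, and Col1a1 was at least 1.87-fold higher at day 5. The part of these cell types in the differences below was not tested, and in whole liver fewer cells of a type and less RNA per cell cannot be told apart.

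With quantile normalization, ribosomal protein transcripts varied less over the 4 arrays than the detected genes at large. The range over the arrays had a median of 0.49 among the 56 detected members and of 0.94 among all 9566 detected genes. All 4 values lay within 1.5-fold of each other for 36 members (64.3%), against 24.8% of all detected genes. Rps2, which lies near the mRNA entry channel of the small subunit, read 14.96, 15.02, 14.96 and 15.03 in Ad-Med1 day 3, Ad-LacZ day 3, Ad-Med1 day 5 and Ad-LacZ day 5. Its range of 0.07 was close to those of Rpl19, at 0.09, and of Rpsa, at 0.07, which was detected only on the Ad-Med1 day 5 array and so was read at background elsewhere. These narrow ranges belong to the quantile normalized values, since scaling to a common median gave virus differences of -0.31 and -1.06 for Rps2 and of 0.94 and 0.53 for Rpl19 at day 3 and day 5. A mean log2 signal over 13 was found for 35 of the 56 members, against 425 of all 9566 detected genes, and the part of signal strength in the narrow ranges was not tested.

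The spread of the members over the arrays was uneven with quantile normalization. The orders and departures that follow were not run with the other scalings, under which the virus differences of the members changed. The Ad-Med1 day 5 array held the highest value of 30 members, against 22.7% of all detected genes, while the lowest values lay mainly on the Ad-LacZ arrays, 22 at day 3 and 19 at day 5, as they did for 29.6% and 27.2% of all detected genes. A few members departed by at least 1.5-fold from all other arrays on a single array, and Rpl7a did so on both Ad-LacZ arrays. On the Ad-LacZ day 3 array Rpl22l1, Rps3a1, Rps16 and Rpl7a lay below all others, as did 13.2% of all detected genes, and Rps4l lay above, as did 8.15%. Rpl22 lay below all others on the Ad-Med1 day 3 array (2.16% of all detected genes did). On the Ad-LacZ day 5 array Rps13 lay below (4.80%) and Rpl7a above (2.73%).

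**Figure D1:**
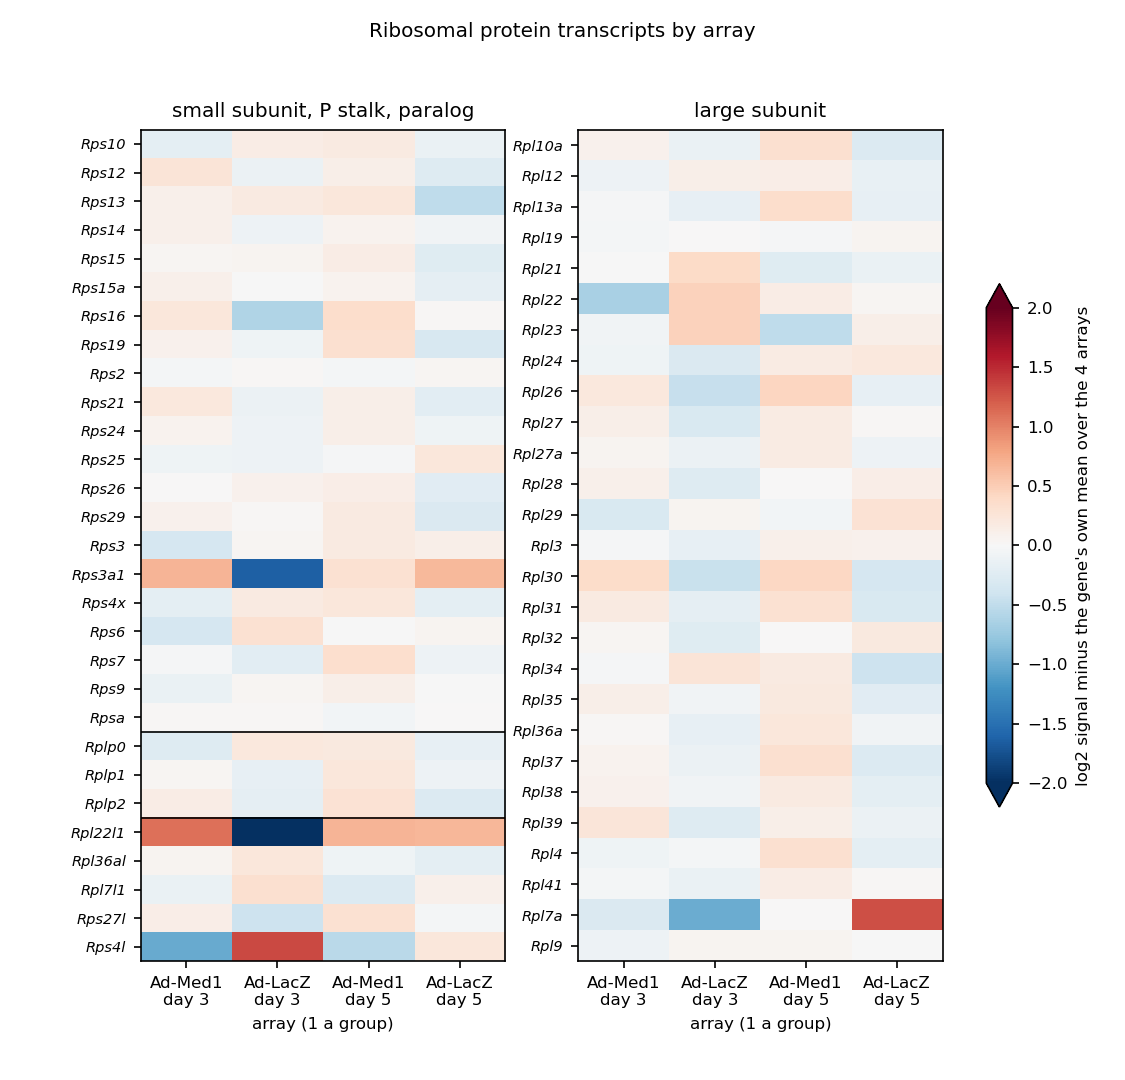
Log2 signal of each of the 56 detected members on each array less the gene's own mean over the 4 arrays, with 1 array in each group; colours stop at 2 on either side, and lines part the small subunit, P stalk and paralogs. Most rows are pale, and the deepest cells are Rpl22l1 and Rps3a1 (low) and Rps4l (high) on the Ad-LacZ day 3 array and Rpl7a (high) on the Ad-LacZ day 5 array.

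At day 3 the family as a whole stood slightly above all genes with quantile normalization and below them with scaling to a common median, and 1 array a group allows no replicate check. The median difference of the 55 members tested was 0.15 (interquartile range -0.18 to 0.30), against -0.03 (-0.57 to 0.63) for all 9052 genes tested. Differences above 0 were found for 33 of the 55 members and for 48.3% of all genes. At least 1.5-fold higher were 6 members, Rpl22l1, Rps3a1, Rps16, Rpl30, Rpl7a and Rpl26, where 26.2% of all genes were called, and at least 1.5-fold lower were 3, Rps4l, Rpl22 and Rps6, where 24.5% were called. Both shares of the members lie below those backgrounds. At 2-fold, 2 members were higher and 2 lower, beside 17.4% and 12% of all genes. The median was 0.04 for the 20 small subunit genes tested, 0.18 for the 27 large subunit genes and 0.20 for the P stalk.

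The position of the family against all genes thus changes with the way the arrays are put on 1 scale. Scaling to a common median in place of quantiles moved the median of all genes to 1.14 at day 3 and 0.91 at day 5, and that of the members to 0.55 and 0.16. Relative to all genes the members then stood 0.59 lower at day 3 and 0.75 lower at day 5, with 8 of 55 and 7 of 56 members above the median of all genes, whereas with quantiles they stood 0.18 higher on each day, with 34 and 38 members above it. On the deposited values less each array's median the members were also below all genes, by -0.29 and -0.44. The direction of the family against all genes therefore has no settled sign in these arrays. The split of all genes moved with the scale as well. With scaling to a common median 74.6% were at least 1.5-fold higher and 3.06% lower at day 3, and 66.7% and 5.08% at day 5, where quantiles gave 26.2% and 24.5% at day 3 and 22.4% and 17.5% at day 5.

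**Figure D2:**
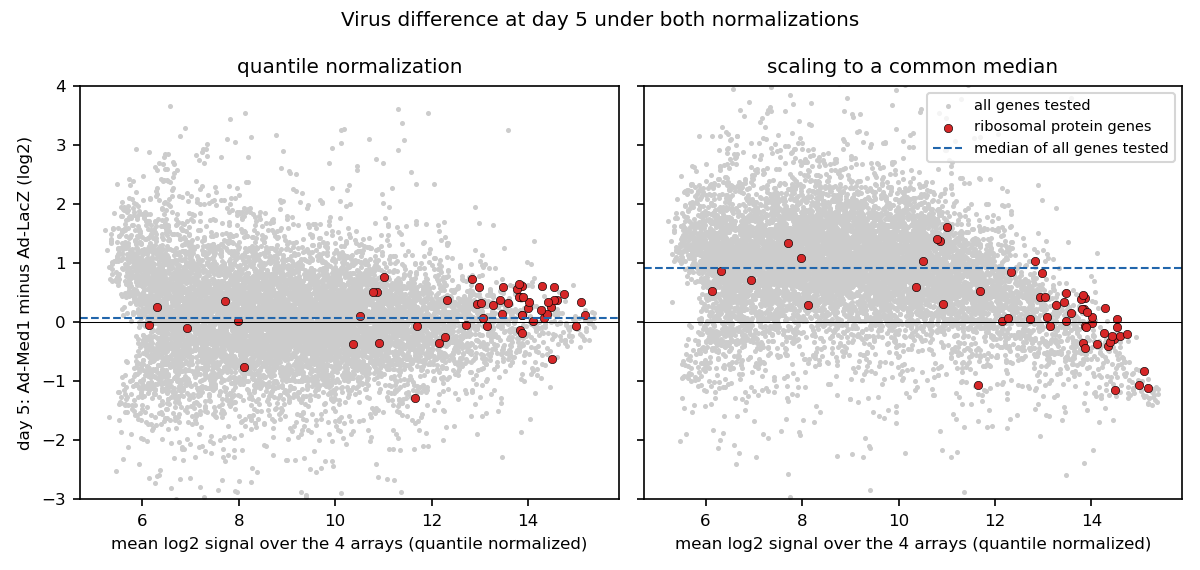
Difference between Ad-Med1 and Ad-LacZ at day 5 (log2) against the mean log2 signal over the 4 arrays, with quantile normalization on the left and scaling to a common median on the right; grey points are all genes tested (those beyond the axes are not drawn), red points the members and the dashed line the median of all genes. Most members sit at the right end of the axis, spread around the dashed line at 0.07 on the left and mainly below the line at 0.91 on the right.

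Within the small subunit, Rps3a1 differed most. Rps3a1, a protein of the platform of the small subunit that contacts initiation factors, read 11.60 in Ad-Med1 and 9.28 in Ad-LacZ at day 3, and 11.22 and 11.57 at day 5. The Ad-LacZ day 3 array, the one without Xist, alone was low and the other 3 lay within 0.38. The difference was 2.32 at day 3, a 5.00-fold higher signal, and -0.35 at day 5, where scaling to a common median turned it to 0.31. Set against Ad-LacZ of day 5, the Ad-Med1 day 3 array stood 0.03 higher, so the size rests on the Ad-LacZ day 3 array. Rps16, whose tail reaches the decoding site, showed the same low array at a smaller size, with 13.81 and 12.98 at day 3 and 13.93 and 13.60 at day 5 in Ad-Med1 and Ad-LacZ. Its differences were 0.83 and 0.32.

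Rps6, the substrate of the S6 kinases downstream of mTOR, read 12.81 in Ad-Med1 and 13.45 in Ad-LacZ at day 3, a difference of -0.63, and 13.13 and 13.20 at day 5. Ad-Med1 day 3 was its lowest array, by 0.32. Under scaling to a common median the day 3 difference was -0.06, and on the deposited values less each array's median it was 0.19. Rps13 and Rps19, a gene mutated in Diamond-Blackfan anaemia, were each lowest on the Ad-LacZ day 5 array. Rps13 read 12.93 and 13.01 at day 3 and 13.06 and 12.32 at day 5 in Ad-Med1 and Ad-LacZ. A second probe of Rps13 gave -0.64 at day 3 and 0.45 at day 5. Rps19 read 13.90 and 13.74 at day 3 and 14.14 and 13.50 at day 5.

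The large subunit pair Rpl22 and Rpl22l1 went opposite ways at day 3. Rpl22 binds RNA and is known in mouse for its part in lymphocyte development, and its protein is known there to lower the mRNA of its paralog Rpl22l1. Rpl22 read 9.86 in Ad-Med1 and 10.97 in Ad-LacZ at day 3, and 10.65 and 10.55 at day 5. The Ad-Med1 day 3 array was the low one, 2.16-fold below its control (-1.11), and the day 5 difference was 0.10. Scaling to a common median turned the day 3 value to 0.11 and the deposited values less each array's median turned it to 0.33, both still below the median of all genes on those scales.

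Rpl22l1 read 9.08 in Ad-Med1 at day 3 and was not detected in Ad-LacZ at day 3, where its signal was 5.55. At day 5 it read 8.66 in Ad-Med1 and 8.64 in Ad-LacZ. Against the lowest detected signal of the Ad-LacZ day 3 array, 6.78, the day 3 level was at least 4.93-fold higher, and the day 5 difference was 0.02. The deposited intensities were 990, 99.4, 810 and 239 in Ad-Med1 day 3, Ad-LacZ day 3, Ad-Med1 day 5 and Ad-LacZ day 5. Set against Ad-LacZ of day 5, the Ad-Med1 day 3 array stood 0.44 higher. So both Rpl22l1 and Rps3a1 were set apart by the Ad-LacZ day 3 array, and Rpl22 by the Ad-Med1 day 3 array.

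Rpl7a, a large subunit protein, had opposite differences on the 2 days. It read 11.35 in Ad-Med1 and 10.65 in Ad-LacZ at day 3, and 11.65 and 12.94 at day 5. The 2 Ad-Med1 values lay between the 2 Ad-LacZ values, which were the lowest and the highest of the 4. The difference was 0.70 at day 3 and -1.29, or 2.45-fold lower, at day 5. Exchanging the controls between the days gave -1.59 for Ad-Med1 day 3 and 0.995 for Ad-Med1 day 5, so the direction followed the control array used. Both directions were kept under scaling to a common median, at 1.90 and -1.07.

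**Figure D3:**
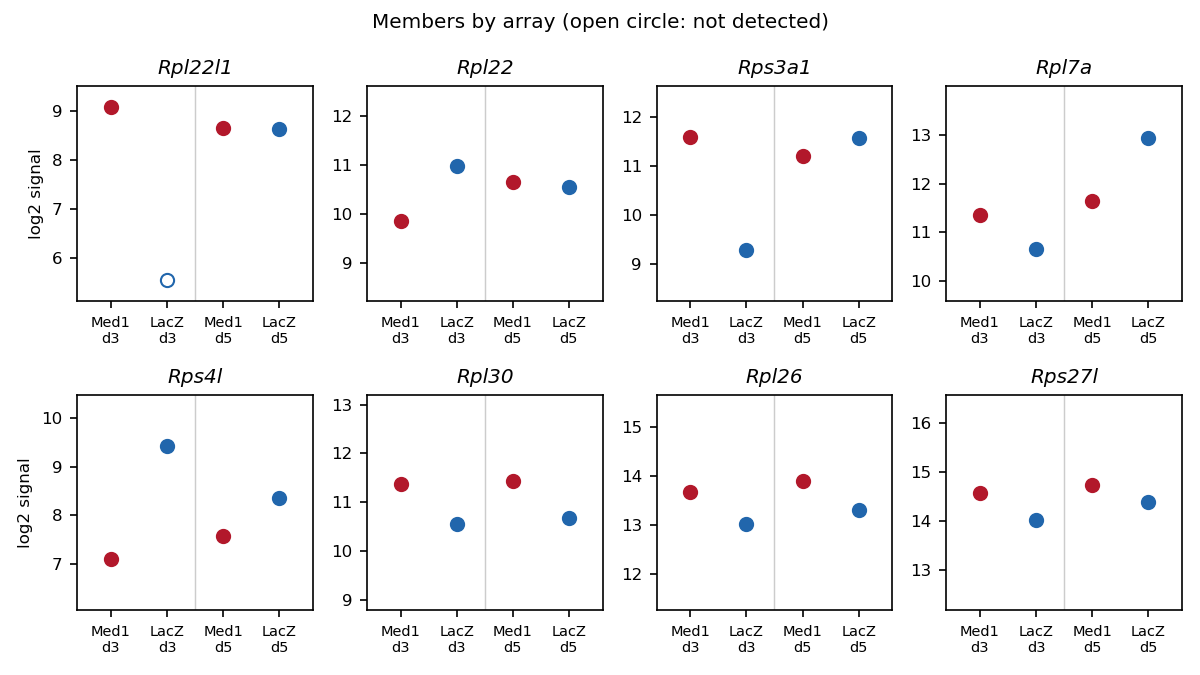
Log2 signal of 8 members on the 4 arrays, Ad-Med1 in red left of Ad-LacZ in blue for each day (d3, d5), 1 array each, with an open circle where the probe was not detected; each panel has its own range of levels. Rpl22l1 and Rps3a1 are low only on the Ad-LacZ day 3 array, Rps4l is lower in Ad-Med1 on both days (with scaling to a common median at day 3 only), and Rpl30 and Rpl26 are higher in Ad-Med1 on both days.

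With quantile normalization the standard deviation of the differences over members was smaller at day 5 than at day 3, as it was over all genes. More members lay above 0 at day 5 than at day 3. The order of these counts turned with scaling to a common median, which put 47 of 55 members above 0 at day 3 and 36 of 56 at day 5, and on the deposited values less each array's median, with 52 and 46. Their median was 0.25 over 56 members (interquartile range -0.05 to 0.42), against 0.07 (-0.39 to 0.52) for all 9261 genes tested, and 41 members (73.2%) lay above 0, against 53.8% of all genes. At least 1.5-fold higher were 8 members, Rpl30, Rps13, Rps19, Rpl31, Rpl10a, Rpl34, Rpl26 and Rpl37, where 22.4% of all genes were called. At least 1.5-fold lower were 3, Rpl7a, Rps4l and Rpl23, where 17.5% were called. None was 2-fold higher and only Rpl7a was 2-fold lower, beside 10.2% and 7.68% of all genes. The standard deviation over members was 0.39 at day 5 and 0.75 at day 3, and over all genes 0.80 and 1.13. The median was 0.31 for the small subunit, 0.24 for the large subunit and 0.35 for the P stalk, and as on day 3 its sign against all genes turned with the scaling.

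Over both days with quantile normalization, 27 of 55 members (49.1%) were higher in Ad-Med1 on each day and 8 (14.5%) lower on each. Of all genes 33.4% were higher and 32.2% lower on each day, and the other 20 members went opposite ways. Counts over both days were not run with the other scalings. Scaling to a common median put 8 of 55 members above the median of all genes at day 3 and 7 of 56 at day 5. On the deposited values less each array's median these were 17 and 9. At least 1.5-fold higher on both days were Rpl26 and Rpl30, where 9.64% of all genes were called, and at least 1.5-fold lower was Rps4l, where 9.67% were called, although scaling to a common median turned its day 5 value to 0.29. Rpl26, a protein at the exit tunnel that is also known to bind p53 mRNA, read 13.69 in Ad-Med1 and 13.02 in Ad-LacZ at day 3, and 13.91 and 13.32 at day 5. The differences were 0.67 and 0.59, and both Ad-Med1 arrays lay above both Ad-LacZ arrays. Rpl30, which in yeast represses the splicing of its own transcript, read 11.38 and 10.56 at day 3 and 11.43 and 10.67 at day 5 in Ad-Med1 and Ad-LacZ. Its differences of 0.82 and 0.76 came from 1 probe, while its second detected probe gave 0.13 and 0.19.

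Virus over both days was tested with limma on all 9566 detected genes, with day as a further term. That fit has 1 residual degree of freedom, which is the gap between the virus differences of the 2 days. Its p-values hold the mean difference against that gap pooled with a prior variance from all genes, of 2.69 degrees of freedom. They do not measure a spread between animals. No member of 56 passed an adjusted p under 0.05 in limma, and neither did any other gene (0% of all genes), although the unadjusted p lay under 0.05 for 646 genes higher (6.75%) and 649 lower (6.78%). Among members 1 had an unadjusted p under 0.05, Rps4l, at -1.55 ± 0.50 (SE of the limma fit, adjusted p = 0.367). Rpl30 had 0.79 ± 0.30 (limma, adjusted p = 0.374) and Rpl26 0.63 ± 0.30 (limma, adjusted p = 0.416). The count depends on the scale, since 1 member (Rpl30) passed limma with scaling to a common median, where 1869 of all genes passed, and 15 members passed on the deposited values less each array's median, where 5013 did.

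**Figure D4:**
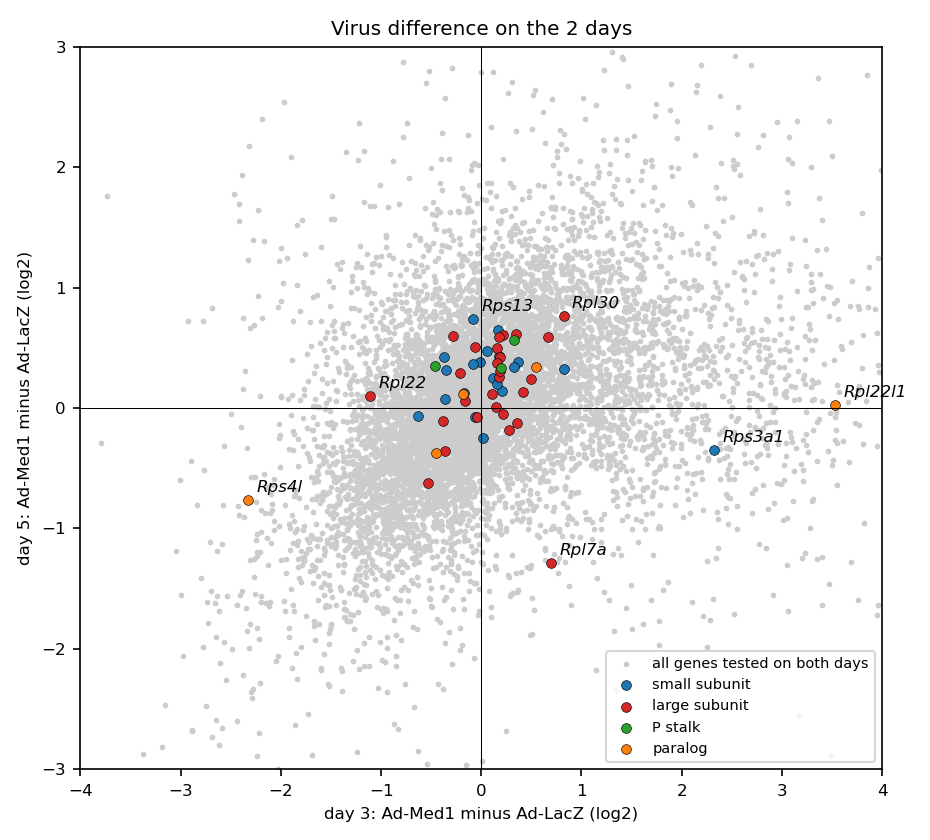
Difference between Ad-Med1 and Ad-LacZ (log2) at day 3 on the horizontal axis and at day 5 on the vertical axis; grey points are all genes tested on both days (those beyond the axes are not drawn) and coloured points the 55 members by role. In these quantile normalized values most members lie close to the origin and above the horizontal line, and Rpl22l1, Rps3a1, Rps4l, Rpl22 and Rpl7a lie apart.

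The detected paralogs did not move as a group. Rps4l read 7.10 in Ad-Med1 and 9.43 in Ad-LacZ at day 3, and 7.58 and 8.35 at day 5. Both Ad-Med1 arrays lay below both Ad-LacZ arrays, 5.03-fold at day 3 (-2.33) and 1.70-fold at day 5 (-0.77), but scaling to a common median gave -0.99 and 0.29. Rps27l, a paralog of Rps27 known as a target of p53, read 14.56 and 14.01 at day 3 and 14.74 and 14.39 at day 5 in Ad-Med1 and Ad-LacZ. Its differences of 0.55 and 0.34 missed 1.5-fold on each day, and scaling to a common median turned that of day 5 to -0.24. Rpl36al, a near copy of Rpl36a, read 13.91 and 14.10 at day 3 and 13.78 and 13.67 at day 5.

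Rpl7l1, which takes part in large subunit assembly, was read by a pair of detected probes that went opposite ways. The one with the stronger signal read 10.23 and 10.69 at day 3 and 10.09 and 10.46 at day 5 in Ad-Med1 and Ad-LacZ, differences of -0.46 and -0.37. The other gave 0.82 and 0.49. No direction can be given for this gene.

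With quantile normalization the P stalk genes had ranges over the 4 arrays of 0.47 for Rplp0, 0.39 for Rplp1 and 0.56 for Rplp2. Rplp0 is the base of the stalk and is often used as a reference gene, and its probe read 7.46 and 7.92 at day 3 and 7.90 and 7.55 at day 5 in Ad-Med1 and Ad-LacZ, so that the difference changed sign between the days. Rplp1 read 15.14 and 14.93 at day 3 and 15.33 and 14.99 at day 5. Rplp2 read 13.92 and 13.60 at day 3 and 14.07 and 13.51 at day 5. Rplp1 and Rplp2, which form the mobile arms of the stalk, were thus higher in Ad-Med1 on both days by 0.20 to 0.56 with quantiles, whereas scaling to a common median put Rplp1 at -0.10 and -0.83 and Rplp2 at 0.73 and 0.39. It put Rplp0 at 0.88 and 1.34.

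Of the members with the strongest signals, Rpl41, a very short protein that bridges the subunits, read 15.15 and 15.04 at day 3 and 15.32 and 15.21 at day 5 in Ad-Med1 and Ad-LacZ. Its deposited intensities were 37303 and 22426 at day 3 and 41302 and 44287 at day 5 in Ad-Med1 and Ad-LacZ. The Ad-LacZ day 3 array, the dimmest by mean intensity, was its lowest in the deposited and in the quantile normalized values. Scaling to a common median turned its small differences of 0.10 and 0.12 to -0.22 and -1.11. It also put Ad-Med1 day 5 at -0.16 against Ad-LacZ day 3, so both Ad-Med1 arrays lay below that array. Rps29, a zinc-binding protein of the small subunit head, read 14.82 and 14.77 at day 3 and 14.92 and 14.45 at day 5. Rpl38, known in mouse for its part in translating Hox mRNAs, read 14.68 and 14.52 at day 3 and 14.78 and 14.40 at day 5. A second probe of Rps2 gave -0.49 and -0.59 where the first gave -0.06 and -0.07.

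Probes of the same gene often disagreed. Of the 15 members with several detected probes, 8 had probes of opposite sign at day 3 and 5 at day 5, and the median gap between the probes of a gene was 0.69 at day 3 and 0.44 at day 5. In 1 gene on 1 day probes differed at least 1.5-fold in opposite directions, Rpl23 at day 5. Rpl23, a large subunit protein that can bind and restrain Mdm2, was lower by its strongest probe, with 14.43 and 14.96 at day 3 and 13.98 and 14.61 at day 5 in Ad-Med1 and Ad-LacZ, differences of -0.53 and -0.62. A further probe (ILMN_1238227) read 10.73 and 10.74 at day 3 and 11.02 and 9.96 at day 5, a day 5 difference of 1.06, and the remaining one gave 0.30 and 0.34. The lower call of Rpl23 therefore belongs to a single probe.

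The same held for 2 members below every threshold by their strongest probe. A second probe of Rps3, an mRNA entry protein, read 12.33 in Ad-Med1 and 11.32 in Ad-LacZ at day 3 (1.01), and 12.84 and 12.91 at day 5 (-0.07), where the strongest gave -0.37 and 0.07. A second probe of Rpl29 read 7.64 and 10.11 at day 3, 5.57-fold lower in Ad-Med1, and 9.43 and 8.76 at day 5, where the strongest gave -0.36 and -0.35. Ribosomal protein genes have many processed pseudogenes in mouse, and whether a probe also binds their transcripts was not tested.

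With quantile normalization the members differed less over time in Ad-Med1 than in Ad-LacZ livers, as did all genes. The standard deviation of the time differences was 0.23 and 0.69 over members and 0.59 and 0.91 over all genes. These comparisons share their arrays with those above. The time differences and their calls were not run with the other scalings, under which the virus differences of the members changed. Day 5 minus day 3 in Ad-Med1 had a median of 0.13 over 56 members, against -0.04 for all genes, with 41 members above 0. Only Rpl22 was at least 1.5-fold higher at day 5, with 10.65 against 9.86 at day 3, where 9.78% of all genes were called, and no member was lower, where 9.28% were called. In Ad-LacZ the median was -0.06 over 54 members, against -0.11 for all genes. Rpl22l1, Rps3a1, Rpl7a and Rps16 were at least 1.5-fold higher at day 5 and Rps4l, Rps13 and Rpl34 lower, where 18.3% of all genes were called in each direction. At 2-fold, 0 members were higher or lower at day 5 in Ad-Med1, beside 5.02% and 2.91% of all genes, and in Ad-LacZ 3 were higher and 1 lower, beside 12.1% and 6.47%. The difference between these time courses was not tested, since each rests on 1 array a day.

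Genes that build the ribosome or act with it gave no common direction. The mitochondrial ribosomal proteins, a separate family of 76 genes for the ribosome inside mitochondria, had medians of -0.23 at day 3 and -0.18 at day 5 over 72 tested, opposite in sign to the cytosolic family with quantile normalization. At least 1.5-fold higher were 11 of them at day 3 and 1 at day 5, and lower were 16 and 6. Of all genes 26.2% and 22.4% were higher and 24.5% and 17.5% lower. Scaling to a common median put this family 0.31 below all genes at day 3 and 0.32 below at day 5, so it lay below all genes under both scalings, while on the deposited values it lay 0.03 above at day 3. Mrps15, Mrps18c and Mrpl20 were each low on the Ad-LacZ day 3 array, as Mrps15 shows with 9.98 and 8.15 at day 3 and 9.87 and 10.06 at day 5 in Ad-Med1 and Ad-LacZ.

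Ribosome biogenesis genes, which transcribe, cut and fold ribosomal RNA, had medians of 0.03 at day 3 over 41 tested and 0.05 at day 5 over 42. At day 3, 11 were at least 1.5-fold higher and 6 lower, and at day 5 8 were higher and 4 lower, beside 26.2% and 24.5% of all genes at day 3 and 22.4% and 17.5% at day 5. Rrn3, the factor that brings RNA polymerase I to ribosomal DNA, read 9.39 in Ad-Med1 and 7.49 in Ad-LacZ at day 3, and 9.13 and 9.46 at day 5. Nmd3, the export adaptor of the large subunit, read 9.10 and 7.38 at day 3 and 8.92 and 9.17 at day 5, and its second probe gave -1.17 at day 3. Rrs1 and Rrp1 were undetected on the Ad-LacZ day 3 array and at least 1.32-fold and 1.31-fold higher in Ad-Med1. By the shown probes the Ad-LacZ day 3 array was the lowest for each of these 4 genes, whereas it was the highest by the second probe of Nmd3.

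A list of translation factors and other genes whose mRNAs also carry a TOP element had medians of -0.04 and 0.12 over 13 tested. Hnrnpa1, Npm1, Nap1l1 and Tpt1 in it are not translation factors in the strict sense. At day 3, 6 of the list were higher and 1 lower, beside 26.2% and 24.5% of all genes. At day 5, 3 were higher and 1 lower, beside 22.4% and 17.5%. Pabpc1, the poly(A)-binding protein, read 12.66 in Ad-Med1 and 10.56 in Ad-LacZ at day 3, and 12.66 and 12.76 at day 5, and another of its probes gave -1.88 at day 3. Eef1b2, an exchange factor of elongation, read 12.996 and 11.64 at day 3 and 13.31 and 12.57 at day 5, and of its other probes 1 gave -0.89 at day 3. Hnrnpa1, a splicing factor, read 10.98 and 8.997 at day 3 and 10.71 and 10.25 at day 5, and another probe gave -0.10. Tpt1 was undetected on the Ad-LacZ day 3 array and at least 1.03-fold higher in Ad-Med1.

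Among genes that control growth through translation the largest difference was that of Eif4ebp2, which holds back the cap-binding protein Eif4e until mTOR phosphorylates it. Its single probe read 7.75 in Ad-Med1 and 11.08 in Ad-LacZ at day 3, and 7.51 and 10.73 at day 5, so that Ad-Med1 was 10.1-fold and 9.28-fold lower. Both Ad-Med1 arrays lay below both Ad-LacZ arrays, and scaling to a common median kept the direction at -2.19 and -2.28. Larp1 read 9.58 and 8.20 at day 3 and 9.46 and 9.54 at day 5, again with a low Ad-LacZ day 3 array. Mxd1, a partner of Max that opposes Myc, was undetected in Ad-LacZ on both days and at least 1.43-fold and 2.68-fold higher in Ad-Med1, and Max was detected only on the Ad-Med1 day 5 array, at least 1.19-fold above its control. The 8 genes of this list had medians of 0.29 and 0.33. Mdm2, which free ribosomal proteins can bind, read 10.56 and 10.71 at day 3 and 10.63 and 10.51 at day 5, and the p53 target Cdkn1a read 11.16 and 9.98 at day 3 and 11.33 and 11.06 at day 5. Fau, Rack1, Rpl5, Rpl11 and Trp53 were not analysed here, as no named probe was at hand.

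**Figure D5:**
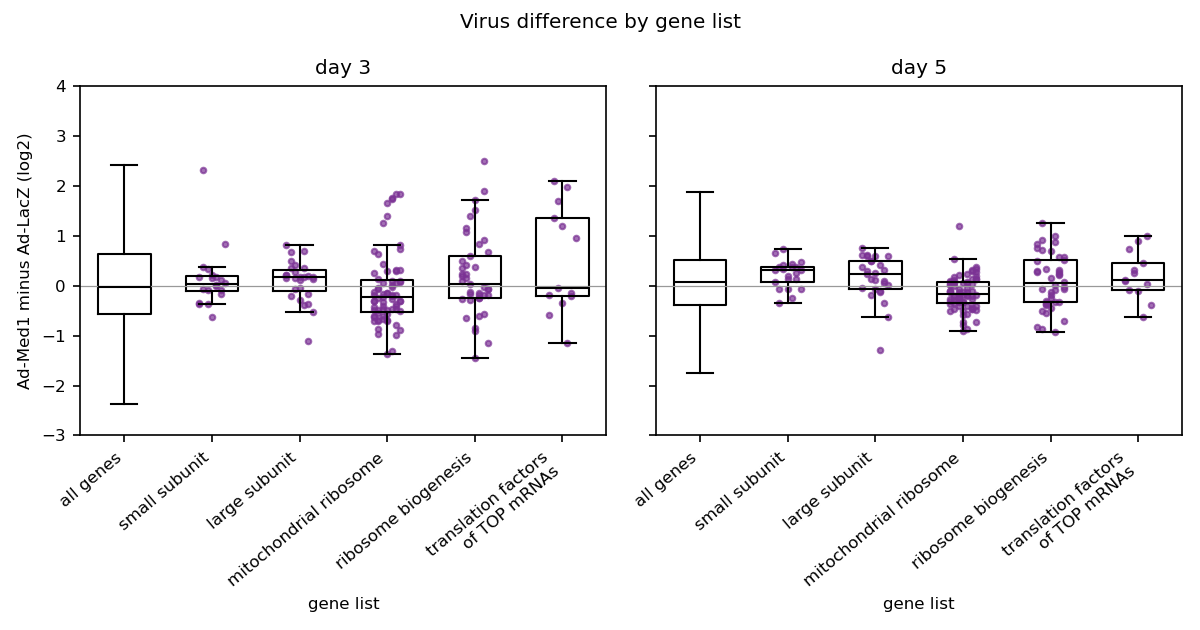
Difference between Ad-Med1 and Ad-LacZ (log2) by gene list at day 3 and day 5; boxes span the quartiles with the median as a line, whiskers reach the last gene within 1.5 times the box, and points are the genes of each list. Both subunits of the cytosolic ribosome have narrow boxes near 0, and the mitochondrial ribosome has medians below 0 on both days with these quantile normalized values. The list labelled translation factors, which also holds other genes with TOP mRNAs, spreads upward at day 3.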

How the data were processed

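RNA from mouse liver was measured on 4 Illumina arrays, 1 for each virus and day, so no spread within a group exists and the number of arrays limits the precision. Trizol extraction, a column clean-up with DNase and biotin labelling are recorded per the labels' protocols. The scanner software and a genome build were not given in the sources used here. The deposited table, per the file headers, holds a non-normalized probe intensity on a linear scale and a detection p-value for each of 45281 probes. The values in the authors' series matrix matched these intensities exactly (largest gap 0, medians 153, 94.1, 164 and 100.4 for Ad-Med1 day 3, Ad-LacZ day 3, Ad-Med1 day 5 and Ad-LacZ day 5), so scale and direction are known and no centring was applied.

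Values were processed with neqc of limma 3.58.1 in R 4.3.3 (normexp by detection p, offset 16, quantiles, log2). Gene symbols came from the platform annotation and were brought up to date by a RefSeq table of GRCm38.p6. It held the gene identifier of 34807 probes (99.8% of those with 1 symbol), and all 63 members kept their symbol. In all, 34885 probes had 1 symbol, 18 several and 10378 none. A gene was tested at a day if either array of that day detected its shown probe. Where the dimmer side was undetected, a fold is written as at least that of the bright side over the higher of the dim signal and the lowest detected signal of its array. The limma fit (lmFit, eBayes, virus and day) had a prior of 2.69 degrees of freedom, and p-values were adjusted by Benjamini-Hochberg over all 9566 genes. It was tested on simulated data. Python 3.11.15, pandas 2.3.3, numpy 2.4.6 and matplotlib 3.10.9 were used.

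Described with all values were members at least 2-fold apart on a day or 1.5-fold on both, the 5 with the strongest signal, the P stalk, Rpsa, detected paralogs and members with probes at odds; Rps16, Rps6, Rps13, Rps19, Rps3 and Rpl29 were added after their values were seen. Of other lists up to 4 genes were named. Members and lists were chosen with earlier results of these data known.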

Additional observations from a re-analysis of the deposited data

Results flagged for a closer look

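Differences that ran opposite ways on the 2 days by at least 1.5-fold each were found for 2 member probes. The second probe of Rpl29 (ILMN_2730005) stood at -2.48 at day 3 and 0.67 at day 5 (Ad-Med1 minus Ad-LacZ, log2), and the probe of Rpl7a (ILMN_2819841) at 0.70 and -1.29. With 1 array a group the difference between the days was not tested for either.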

How the results depend on the processing

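Of the alternatives run on the 7 summary values, 48 left the value the same, 12 moved it and 3 brought a limma call. A median counted as the same if it kept its sign and lay within 0.1 of the main value. A count was the same if equal or within 1.5 times, and limma if no member passed. These labels do not set the members against all genes. Of all genes, scaling to a common median put 74.6% at least 1.5-fold higher at day 3 and 5.08% lower at day 5. Scaling to a common median gave a day 3 median of 0.55, 25 members at least 1.5-fold higher at day 3, 5 lower at day 5, and 1 member past limma (Rpl30, adjusted p = 0.0460, range over all limma alternatives up to 0.66, with 1869 genes called in all). Deposited values less each array's median gave medians of 0.72 and 0.39, against 1.01 and 0.83 for all genes. There 34 of 55 members were higher at day 3 and 20 of 56 at day 5, beside 73.5% and 67.0% of all genes. None was lower at day 3, beside 1.19% of all genes. On these values 15 members passed limma, all higher (smallest adjusted p = 0.0169, 5013 genes called). The Ad-LacZ array of day 5 as control left 2 members higher at day 3, beside 21.3% of all genes. A 2-fold threshold left 2 higher at day 3, 0 higher at day 5 and 1 lower at day 5, being the stricter count. Of all genes it left 17.4%, 10.2% and 7.68%. Leaving out each array in turn, with no day term, gave 0 to 1 members past limma, the 1 being Rpl22l1 without the Ad-LacZ day 5 array (adjusted p = 0.0381, 428 genes called). No cause beyond the settings was tested. Leaving out the paralogs was chosen after seeing the data and moved none of its 6 values. No paired analysis was possible because each group held 1 array, with no replicate to match; day entered limma as a term. Signal over background limits Rpl22l1, Rps15a and Rpsa, which were not detected on every array, and the 7 members detected on none.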
